A study of Homo sapiens with 4 samples.

Results

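The genes described here are the replication-dependent histone genes, 66 of the 62696 genes in the deposited count tables. They were taken by symbol alone, as H1-1 to H1-6 and the numbered H2AC, H2BC, H3C and H4C genes. This rule uses no measured value, but the genes and lists were chosen with earlier results of these data known. They comprise 6 H1, 16 H2A, 17 H2B, 13 H3 and 14 H4 genes. All libraries came from NT2 cells (NTERA-2), an established human embryonal carcinoma line whose genotype is labelled wild type, grown in serum-containing medium. One group was 1 library of cells with an empty vector, called the control library below, and the other was 3 libraries labelled HYDIN2 knockdown, replicates 1, 2 and 3. How the knockdown was made, and whether its replicates were separate cultures or constructs, was not stated, so any spread between them may be technical. Total RNA was depleted of ribosomal RNA, without selection for poly(A) tails, and made into strand-marked libraries.

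Nucleosomes hold an octamer of the core histones H2A, H2B, H3 and H4, and H1 binds the DNA between them. Replication-dependent histone genes are intronless, stand in clusters, and are expressed in S phase, when new DNA must be packaged. Their mRNAs end in a stem-loop that is bound by SLBP in place of a poly(A) tail, and NPAT drives their transcription at the clusters. Because many copies are nearly identical, the level of a class is more secure than that of a single gene, and class sums lead the results below.

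The stem-loop is the feature that sets these mRNAs apart, and it was searched for as a pattern of 16 bases on the sense strand after the stop codon of the GENCODE 29 transcripts. It was found in 28 of 66 genes, and in 27 of the 28 genes whose annotated transcript ran at least 60 bases past the stop codon. H2BC11 was the exception. The remaining match was in H4C11. The other 37 genes had fewer than 60 annotated bases past the stop codon and no match. The forms are shown 5′ to 3′ as DNA, each on the strand of its gene, with the 4 loop bases in capitals.

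Found in 15 H2A, H2B and H3 genes: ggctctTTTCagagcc

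Found in H2BC4, H2BC5, H2BC7 and H3C8: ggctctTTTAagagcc

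Found in H4C2, H4C5, H4C8 and H4C11: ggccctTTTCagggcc

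Found in H4C9, H4C14 and H4C15: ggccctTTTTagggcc

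Found in H2AC11: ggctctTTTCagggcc

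Found in H3C6: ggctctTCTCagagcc

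Every stem found in an H4 gene had ggccct on its left arm, and every stem found in an H2A, H2B or H3 gene had ggctct there. No H1 gene had 60 annotated bases past its stop codon, and none had a match.

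The promoters also differed by class. RefSeq windows on GRCh38.p14 from 250 bases before to 50 bases after the start were matched for 61 of 66 genes, with 65 windows in all, and searched on both strands. The octamer ATTTGCAT, the site of POU factors such as the product of POU2F1, was in 27 of 65 windows (41.5%), against 1.77% of 35116 windows of all genes. By class it was in 73.3% of H2A and 78.9% of H2B windows, in 7.69% of H3 windows and in no H1 or H4 window. The CCAAT motif was in 86.2% of the histone windows against 34.6% of all windows, and in only 25% of those of H4. The TATAAA motif was in 67.7% against 11.5%. None of the 3 motifs lies within another, and a match describes the letters of the window, not the binding of a factor.

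Sequencing depth and the state of the cells bear on everything that follows. Library totals were 25181737 counts for the control and 62904698, 61627449 and 28552070 for the knockdown-labelled replicates 1, 2 and 3. HYDIN2, the targeted gene, was at 0.5 CPM in the control library (95% interval 0.183 to 1.09) and at 2.41 (1.9 to 3.02), 1.88 (1.42 to 2.44) and 0.352 (0.122 to 0.792) in the others. It was thus higher in replicates 1 and 2 by more than counting error, and lower in none by more than that, so the target does not check the labels. The headers of the count columns also name other genes than the sample labels do: a LacZ control and sets of GKAP_KIF27. Directions below are those of the libraries labelled knockdown. Levels are CPM, a count relative to the TMM-scaled total of its library, and differences are on the log2 CPM scale with a prior count of 2. Of 11 embryonal carcinoma markers none was at 0 in all libraries, and their summed level was 8995, 9850, 9982 and 8166 CPM in the same order. Single markers differed more: 5 of 11 were at least 2-fold lower in replicate 3, against 15.9% of all genes. Their median was -0.63, beside -0.15 for all genes. Summed neuron markers, 46 CPM in the control library, were at 74.9, 73 and 36.8 CPM, neural progenitor markers, 168 CPM there, at 307, 288 and 273 CPM, and fibroblast markers, 138 CPM there, at 261, 240 and 204 CPM. These sums hide single genes. Of 5 tested neuron markers 3 lay above the control library in both replicates 1 and 2, and 1, RBFOX3, below. NES gave 167 CPM of the progenitor sum in the control library. PAX6 had 0 counts there and 957, 784 and 92 in replicates 1, 2 and 3, and FABP7 had 0.833 CPM against 0.0321, 0.268 and 0.384 CPM. DCN had 0 counts in the control library and in replicates 1 and 3. The part of other cell types in the histone values was not tested, and in bulk RNA fewer cells in S phase and less histone RNA per cell cannot be told apart.

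The histone genes as a whole were somewhat more abundant in 2 of the knockdown-labelled libraries and far less abundant in the third. They took 1.37% of all counts in the control library (95% interval 1.37% to 1.38%, Clopper-Pearson), 1.63% in replicate 1, 1.74% in replicate 2 and 0.632% in replicate 3 (0.628% to 0.636%). All intervals here cover counting error only. The summed level was 14418 CPM in the control library and 16445, 17949 and 5775 CPM in replicates 1, 2 and 3. Over the knockdown-labelled libraries this gave 13390 ± 6637 CPM (SD, n = 3). The log2 difference from the control library averaged -0.27 ± 0.91 (SD, n = 3), less than its spread. Only replicate 3 lay below the control library, and without it both remaining differences were above 0.

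Replicate 3 was low in every class. H1, the linker histones, had 2969 CPM in the control library and 2616, 2787 and 1098 CPM in the knockdown-labelled replicates 1, 2 and 3. H2A had 1558 CPM against 2433, 2623 and 617 CPM. H2B had 5213 CPM against 5003, 5535 and 2406 CPM. In both H2A and H2B the third replicate was the lowest of the 4 libraries, but replicates 1 and 2 stood apart from the control library in H2A alone. H3 had 3524 CPM against 5094, 5583 and 1258 CPM, and H4 had 1153 CPM against 1300, 1421 and 396 CPM. The classes thus fall into a pair, H2A and H3, that was 1.45 to 1.68 times the control level in replicates 1 and 2, and the other 3 classes, at 0.881 to 1.23 times that level.

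**Figure D1:**
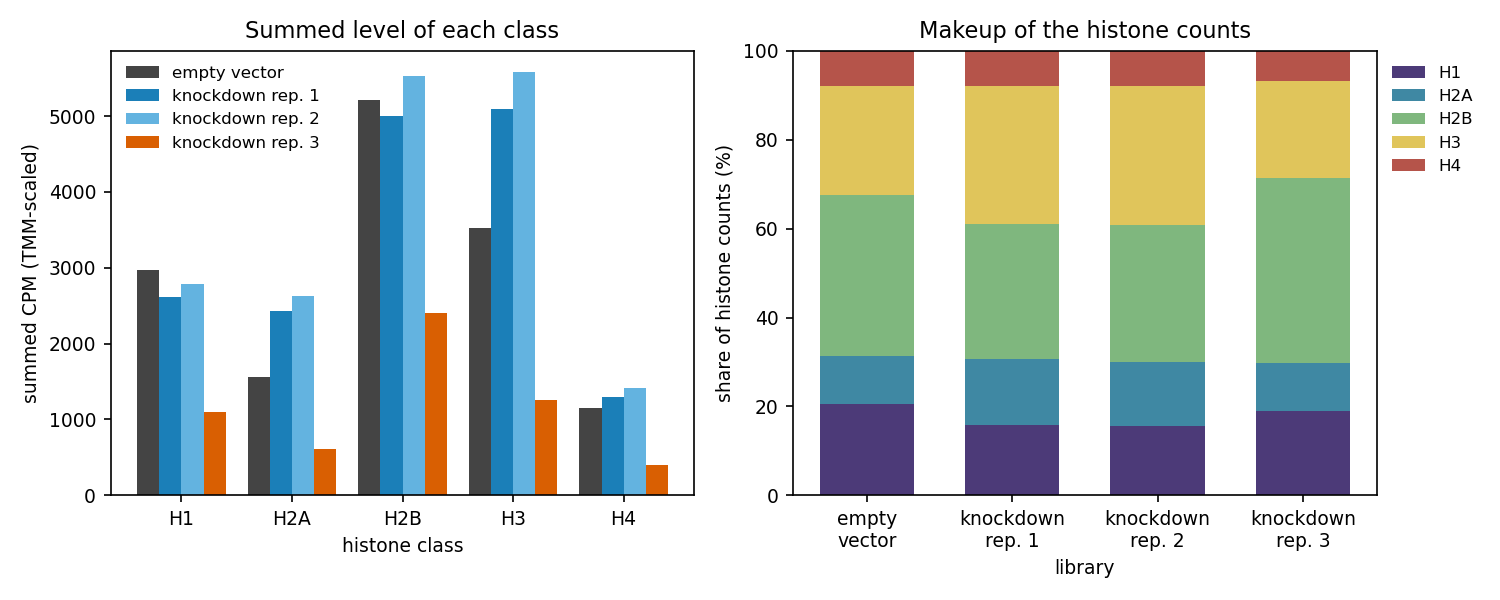
Left, summed level of each histone class in TMM-scaled CPM (bars, 1 per library); right, the share of each class among all histone counts of a library, in percent. H2A and H3 bars of knockdown replicates 1 and 2 stand above the control bar, all bars of replicate 3 are the lowest of their class, and the makeup of replicate 3 is nearer to that of the control library than to that of replicates 1 and 2.

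No class differed from the control library by more than the spread of the knockdown-labelled libraries as a group of 3. The mean log2 difference was -0.57 ± 0.75 for H1, 0.02 ± 1.18 for H2A, -0.36 ± 0.66 for H2B, -0.10 ± 1.20 for H3 and -0.36 ± 1.03 for H4 (each SD, n = 3). With edgeR's quasi-likelihood test, in which the 5 class sums took the place of their genes, 0 of 5 were called, with adjusted p from 0.767 to 0.948, and 0 had an unadjusted p under 0.05. That test has 1 library on the control side, and its spread comes from the 3 others. In replicate 3 alone the class log2 differences ran from -1.54 in H4 to -1.12 in H2B. When lowess trends on the length and GC content of transcripts were taken out of the gene differences, they came to between -0.74 and -0.48, still below 0 in each class. Under the same removal the H1 differences in replicates 1 and 2, -0.18 and -0.09, turned to 0.13 and 0.13. The H2B difference in replicate 1 turned from -0.06 to 0.21, so these small values have no settled direction.

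The makeup of the histone RNA differed between libraries as well as its amount. Shares of the histone counts do not depend on how libraries are scaled to each other. H3 took 24.4% of the histone counts in the control library (24.2% to 24.6%) and 31%, 31.1% and 21.8% in replicates 1, 2 and 3. H2A took 10.8% against 14.8%, 14.6% and 10.7%. The shares of H1 and H2B lay the other way in replicates 1 and 2. H1 took 20.6% against 15.9%, 15.5% and 19%, and H2B took 36.2% against 30.4%, 30.8% and 41.7%. H4 was steadiest in replicates 1 and 2, at 8% against 7.9%, 7.92% and 6.85%. Added up, 10.5 percentage points of the histone counts lay in other classes in replicate 1 than in the control library, and also 10.5 points in replicate 2. Only 5.51 points did so in replicate 3, against 0.561 points between replicates 1 and 2 and 14.3 points between replicate 3 and either of them. Counted by gene in place of class, the distances from the control library were 17.6, 17 and 7.03 points.

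Of the 66 genes, 56 passed the minimum, a mean of the 2 group mean CPMs of at least 1, and entered the comparison by gene. H2AC1, H2AC7, H2AC17, H2AC18, H2BC1, H3C4, H3C6, H3C15, H4C7 and H4C15 did not. A gene was called when it lay at least 2-fold from the control library on the same side in all 3 knockdown-labelled libraries. By that rule 0 of 56 histone genes were higher, where 3.66% of all 15880 genes tested were, and 1 was lower, H4C13, where 2.72% of all genes were. Both counts are close to that background. edgeR's quasi-likelihood test called 0 of 63 histone genes, as it did for 0% of 26029 genes. At an unadjusted p under 0.05 it gave 3 histone genes, 4.76% of them, against 11.6% of all genes. The Wald test of DESeq2 called 0 of 57 histone genes and 1.53% of all genes. Without replicate 3, edgeR's test rests on the small spread between replicates 1 and 2 and called 47 of 63 histone genes (74.6%), against 44.7% of all genes.

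Taken library by library, the histone genes stood out from the background in replicate 3. All 56 lay below the control library there, as did 56.8% of all genes, and 53 of 56 (94.6%) were at least 2-fold lower, against 15.9% of all genes. H2BC6, H2BC21 and H4C1 were the exceptions. Short transcripts as a group were low in this library. Of 256 other protein-coding genes whose longest transcript is under 1000 nt, 57.4% were at least 2-fold lower there, and their median log2 difference was -1.07, beside -1.35 for the histone genes and -0.15 for all genes. The median longest transcript was 506 nt for the tested histone genes and 3519 nt for all tested genes. When the trends on length and GC content were removed, 4 of 56 histone genes (7.14%) remained at least 2-fold lower, against 7.58% of all genes. These were H1-1, H1-6, H4C6 and H4C9. H1-1 and H4C6 rest on few counts, 16 and 6 in the control library and 0 in replicate 3. The 95% interval of the ratio to the control library there was 0 to 0.45 for H1-1 and 0 to 1.86 for H4C6. H4C6 was thus not lower by more than counting error. The length used was that of the longest annotated transcript, 1294 nt for H4C9 and 411 nt for H3C3. Their differences of -1.77 and -1.70 became -1.07 and -0.80. Which genes remained may thus depend on the annotated lengths, and this was not tested. After that removal 55 of 56 still lay below the control library, against 50.6% of all genes, with a median of -0.58, and H4C1 was the exception at 0.55. RNAs that carry no poly(A) tail, a list of 10 chosen after the data were seen, were also low, with 5 of 5 tested at least 2-fold lower and a median of -2.02. After trend removal only RNU5A-1 stayed 2-fold lower, at -1.23, and the others lay between -0.91 and -0.43. In both replicates 1 and 2, 4 of 5 lay below the control library, against 44.4% of all genes, and RN7SL1 was at -0.30 and 0.01. The list medians there were -0.97 and -0.89, where the medians of the tested histone genes were 0.28 and 0.44. The part of transcript length and of RNA quality in the histone values was not tested further.

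In replicates 1 and 2 the histone genes split. At least 2-fold higher in both were 10 of 56 (17.9%), against 9.55% of all genes, and 1 was at least 2-fold lower, against 5.49% of all genes. The 10 were H1-1, H1-6, H2AC13, H2AC16, H2BC11, H3C7, H3C8, H3C10, H4C6 and H4C12. H1-1 and H4C6 had 0.667 and 0.25 CPM in the control library and 0 in replicate 3. They reached the minimum only through replicates 1 and 2, so their place among these 10, and the 16 below, is no separate support. In H4C12 no 75-base stretch is unique to the gene, so its own level is uncertain. Above the control library in both by any amount were 39 (69.6%, against 48.4% of all genes) and below it in both 15 (26.8%, against 44.4%). The 15 were H1-5, H2AC15, H3C11, H3C13, H4C4, H4C13 and 9 H2B genes, so H2B was the class with more genes below (9 of 16) than above (7 of 16). The other short protein-coding genes lay the other way in these libraries, with medians of -0.54 and -0.42, where the histone genes had 0.28 and 0.44. With the trends removed the histone medians were 0.67 in both, and 16 of 56 (28.6%) were at least 2-fold higher, against 8.05% of all genes.

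**Figure D2:**
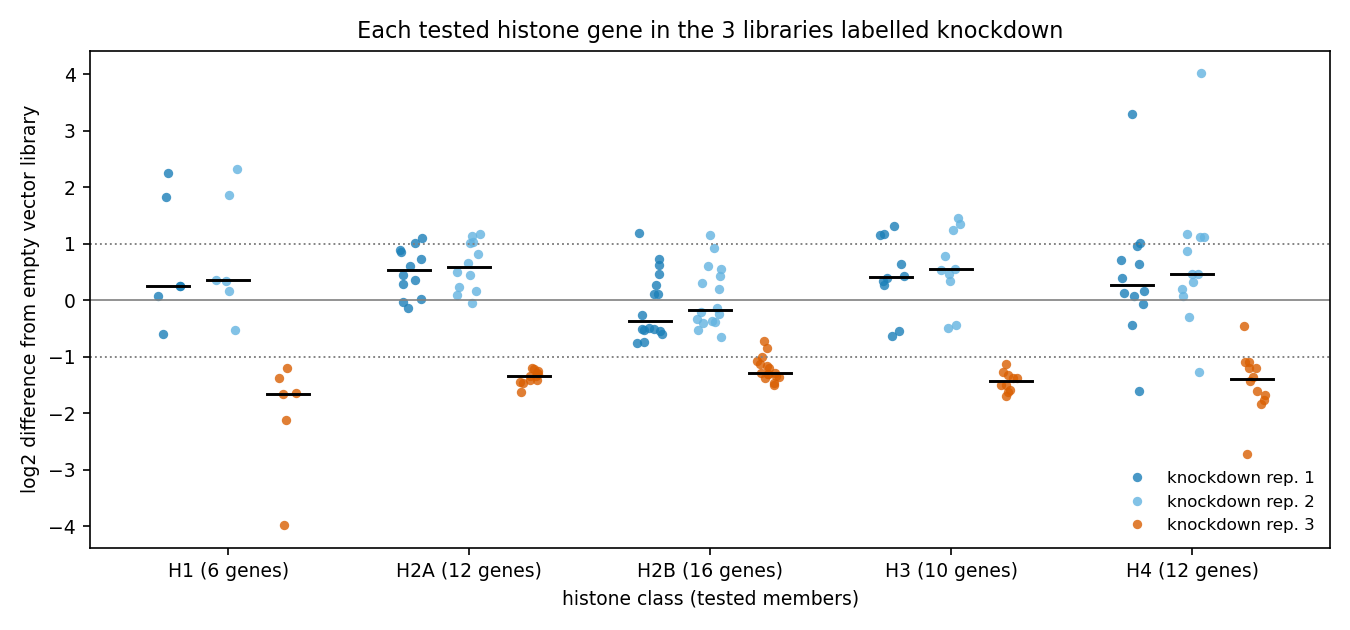
Log2 difference from the control library of each of the 56 tested histone genes (points), by class and by knockdown-labelled library, with the class median as a bar and dotted lines at 2-fold. All points of replicate 3 lie below 0, most of them between -1 and -2, and points of replicates 1 and 2 spread to both sides of 0, with the H2B medians below it.

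The spread among genes differed between libraries. Over the 45 tested genes with a mean of 20 CPM or more, log2 differences in replicate 3 ran from -1.77 in H4C9 to -0.71 in H2BC21, with an SD over genes of 0.22. In replicate 1 they ran from -0.76 in H2BC18 to 1.31 in H3C10, with an SD of 0.61, and replicate 2 had the same 2 genes at its ends and an SD of 0.59. Replicates 1 and 2 were close to each other: none of the 56 tested histone genes differed 2-fold between them, against 0.302% of all genes, and the median size of the difference was 0.13.

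Among the linker histones, H1-5 had the most counts and stood apart from the others. Per kilobase of its longest transcript its level in the control library was 2412 CPM, against 849 for H1-2, the next. It had 1643 CPM in the control library and 1084, 1140 and 635 CPM in replicates 1, 2 and 3, so all 3 lay below. Its mean log2 difference was -0.83 ± 0.47 (SD, n = 3). H1-2 had 545 CPM against 649, 696 and 175 CPM, and H1-3 had 442 CPM against 466, 498 and 140 CPM. Both had replicates 1 and 2 above and replicate 3 below the control library. The H1 sum lay below the control library in replicates 1 and 2 although H1-2, H1-3 and H1-4 each lay above it there. H1-6, the testis-type linker histone, had 4.58 CPM against 16.4, 16.9 and 1.02 CPM. Relative to the control library it was at 3.59 (95% interval 2.71 to 4.83), 3.69 (2.79 to 4.97) and 0.223 (0.12 to 0.396) in replicates 1, 2 and 3. H1-1, named after its values were seen like the other genes at a few counts below, had 16, 208, 210 and 0 counts in the control library and replicates 1, 2 and 3, with ratios of 5.01 (2.45 to 11.9) and 5.28 (2.58 to 12.5) in the first pair.

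In H2A the 3 genes with the most counts shared a pattern. H2AC8 had 288 CPM in the control library and 478, 512 and 108 CPM in replicates 1, 2 and 3. H2AC20 had 332 CPM against 428, 452 and 139 CPM, and H2AC21 had 241 CPM against 367, 383 and 103 CPM. In each of these the first pair of replicates lay above and the third below the control library. H2AC16 had the highest mean difference of the class, 0.32 ± 1.44 (SD, n = 3), from 80.1 CPM against 173, 182 and 31.7 CPM. H2AC15 had the lowest, -0.50 ± 0.71, from 28.5 CPM against 26.1, 27.4 and 11.3 CPM. The annotated exon of H2AC15 lies wholly under a transcript of another histone gene, H2BC15 (HIST1H2BN in GENCODE 29), on the opposite strand, so with no stated strand setting its counts are uncertain.

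H2B, the class with the most counts, held genes on both sides of the control library. H2BC21 had 952 CPM in the control library and 667, 805 and 580 CPM in replicates 1, 2 and 3, all below. H2BC4 had 453 CPM against 749, 856 and 207 CPM, and H2BC12 had 444 CPM against 684, 650 and 198 CPM. H2BC4 and H2BC12 thus were above the control library in replicates 1 and 2, where H2BC21 was below. H2BC5 had the lowest mean difference, -0.88 ± 0.56 (SD, n = 3), from 286 CPM against 171, 216 and 101 CPM. H2BC11 had the highest, 0.35 ± 1.42, from 115 CPM against 261, 254 and 46.8 CPM. Annotated transcripts of 10 tested H2B genes run over 200 bases past the stop codon, which in all of these but H2BC11 is beyond a stem-loop match. The median log2 difference of these 10 was -0.49, -0.18 and -1.16 in replicates 1, 2 and 3, and that of the other 6 was 0.01, 0.12 and -1.30. In replicate 3 both the lowest gene of this class, H2BC5, and the highest, H2BC21 at -0.71, are among the 10, and the other 6 ran from -1.38 to -1.16.

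H3 held 3 genes at least 2-fold higher in replicates 1 and 2 (H3C7, H3C8 and H3C10) among its 10 tested, where 9.55% of all genes were. H3C2 had 689 CPM in the control library and 931, 1016 and 245 CPM in replicates 1, 2 and 3. H3C12 had 534 CPM against 697, 774 and 173 CPM. H3C8 had 384 CPM against 858, 980 and 149 CPM, a ratio of 2.23, 2.55 and 0.387. All of these were high in the first pair and low in the third, and H3C8 passed 2-fold in the first pair. H3C10 had the highest mean difference of the class, 0.49 ± 1.56 (SD, n = 3), from 255 CPM against 634, 701 and 102 CPM. H3C13 had the lowest, -0.87 ± 0.54, from 288 CPM against 186, 205 and 102 CPM, and in it all 3 libraries lay below. Only 29.7% of its 75-base stretches are found in no other annotated gene, so its level is uncertain.

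In H4 the 3 genes with the most counts differed from each other in replicates 1 and 2. H4C4 had 333 CPM in the control library and 247, 272 and 110 CPM in replicates 1, 2 and 3, all below. H4C2 had 235 CPM against 224, 249 and 73.8 CPM, and H4C9 had 217 CPM against 285, 298 and 63.8 CPM. The first pair of replicates thus lay below the control library in H4C4, on both sides of it in H4C2 and above it in H4C9. H4C13 (ENSG00000275126.2; chromosome 6, 27873148 to 27873534, minus strand, RefSeq on GRCh38.p14) was the only histone gene called. It had 17.2 CPM in the control library and 5.61, 7.14 and 4.83 CPM in replicates 1, 2 and 3, a mean log2 difference of -1.57 ± 0.28 (SD, n = 3). Its ratios were 0.325 (95% interval 0.263 to 0.398), 0.414 (0.34 to 0.503) and 0.28 (0.214 to 0.369). With the length and GC trends removed the mean was -0.99 and the call was lost. Its promoter window, shown because it belongs to the called gene, lies at chr6:27873485-27873784 on the minus strand of GRCh38.p14, with 1 CCAAT and 1 TATAAA match in capitals and no octamer.

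H4C13 promoter: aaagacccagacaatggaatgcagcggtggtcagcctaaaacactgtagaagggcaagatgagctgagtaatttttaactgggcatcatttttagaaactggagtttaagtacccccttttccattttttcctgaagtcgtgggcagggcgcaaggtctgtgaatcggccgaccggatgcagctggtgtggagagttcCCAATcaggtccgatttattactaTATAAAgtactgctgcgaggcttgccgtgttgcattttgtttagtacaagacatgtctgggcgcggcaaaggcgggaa

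Some histone genes that were close to silent in the control library were detected in replicates 1 and 2. H2AC1 and H2BC1 are a testis-type pair that start 215 bases apart on opposite strands of chromosome 6, with promoter windows that share 286 bases. H2BC1 had 0 counts in the control library and 154, 186 and 2 counts in replicates 1, 2 and 3. Against a floor of 6 counts in the control library, which is 3 read pairs, it was at least 9.9-fold higher in replicate 1 and at least 12.5-fold higher in replicate 2. H2AC1 had 2 counts against 86, 113 and 0, ratios of 16.6 (95% interval 2.82 to 670) and 22.7 (3.88 to 905) in the first pair. Both members of the pair were thus at or near 0 in the control library and in replicate 3. The window below, on the plus strand at chr6:25726527-25726826 of GRCh38.p14, is that of H2BC1 and holds most of that of H2AC1. It has 1 octamer, 3 CCAAT and 2 TATAAA matches on either strand, in capitals.

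H2BC1 promoter: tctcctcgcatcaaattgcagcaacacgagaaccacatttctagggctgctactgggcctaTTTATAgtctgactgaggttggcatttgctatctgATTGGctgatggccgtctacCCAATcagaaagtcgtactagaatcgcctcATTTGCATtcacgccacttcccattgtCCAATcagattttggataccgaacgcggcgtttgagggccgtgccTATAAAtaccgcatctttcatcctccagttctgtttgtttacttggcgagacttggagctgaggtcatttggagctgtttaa

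H4C6 had 6 counts in the control library and 178, 284 and 0 counts in replicates 1, 2 and 3. Its ratio was 11.4 (3.79 to 56.5) in replicate 1 and 19 (6.38 to 93.4) in replicate 2, and its mean log2 difference, 1.54 ± 3.70 (SD, n = 3), was the highest of the H4 class and smaller than its spread. H3C6 had 31, 50 and 13 counts in replicates 1, 2 and 3 and 0 in the control library, which is at least 1.99-, 3.35- and 1.66-fold against the same floor. Its mean of 0.438 CPM over the 4 libraries is below the minimum for the comparison. H4C7 had 1 count in all, in replicate 1.

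Many histone genes share sequence, which limits what a count of 1 gene means. In 12 of 66 genes fewer than 25% of the 75-base stretches of the annotated exons are found in no other annotated gene, and all 12 had a mean below 20 CPM, with a median of 0.75 CPM over these genes. The other 54 had a median of 195 CPM, and 9 of them were below 20 CPM, among them H1-1, H1-6, H2AC1, H2BC1, H3C6, H4C6 and H4C13. The low genes with shared sequence include H2AC18 and H2AC19 and H3C14 and H3C15, each a pair of near-identical copies. How the counting treated reads that fit several genes is not given in the sources used here. Overlap in the annotation adds to this: exons of 6 histone genes overlap another gene on the same strand, as do 100% of those of H3C4, 98% of those of H2AC7 and 88% of those of H2AC17, which all had under 20 counts in each library. In addition, exons of 9 overlap a gene on the opposite strand.

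**Figure D3:**
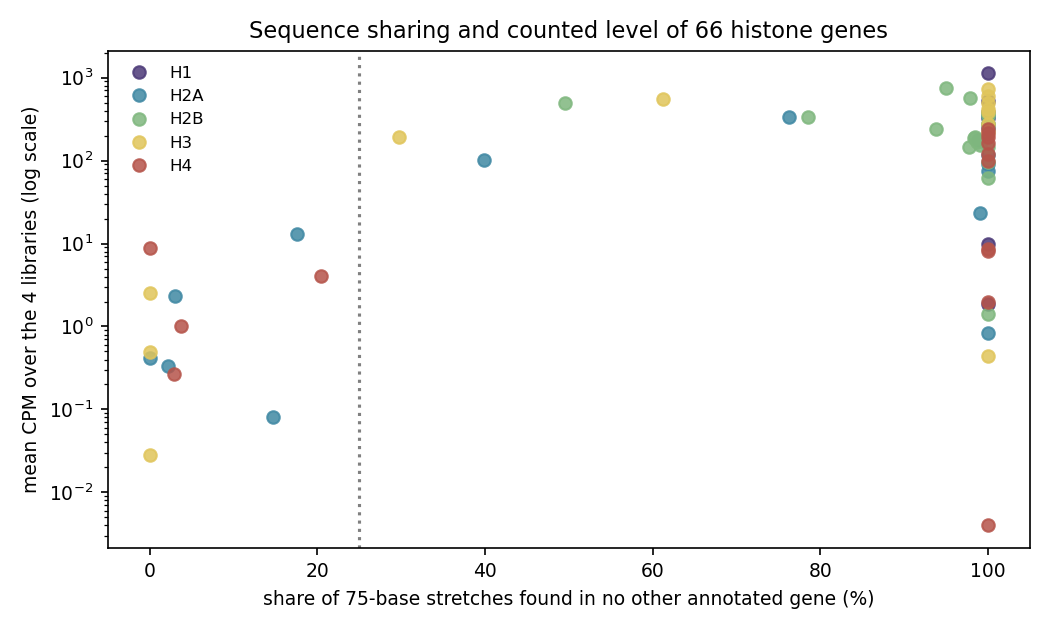
Mean level of each of the 66 histone genes over the 4 libraries (CPM, log scale) against the share of its 75-base stretches found in no other annotated gene (percent), coloured by class, with a dotted line at 25%. All 12 genes left of the line lie below 20 CPM, and 9 of the 54 to the right of it do.

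The genes lie in clusters at 3 places, and genes of each place lay on both sides of the control library in replicates 1 and 2. The cluster on chromosome 1, 149782689 to 149887965 (RefSeq, GRCh38.p14), holds 11 of the genes and lies 2.96 Mb from HYDIN2. The first block on chromosome 6, 25726063 to 26285534, holds 34, and the second, 27132316 to 27893891, holds 21. The median log2 difference in replicates 1, 2 and 3 was 0.05, 0.21 and -1.24 over the 8 tested genes on chromosome 1. It was 0.28, 0.46 and -1.39 over 28 genes of the first block and 0.39, 0.50 and -1.32 over 20 genes of the second. In the second block, for instance, H3C10 was at 2.49 and 2.75 times the control level in replicates 1 and 2 and H4C13 at 0.325 and 0.414 times.

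**Figure D4:**
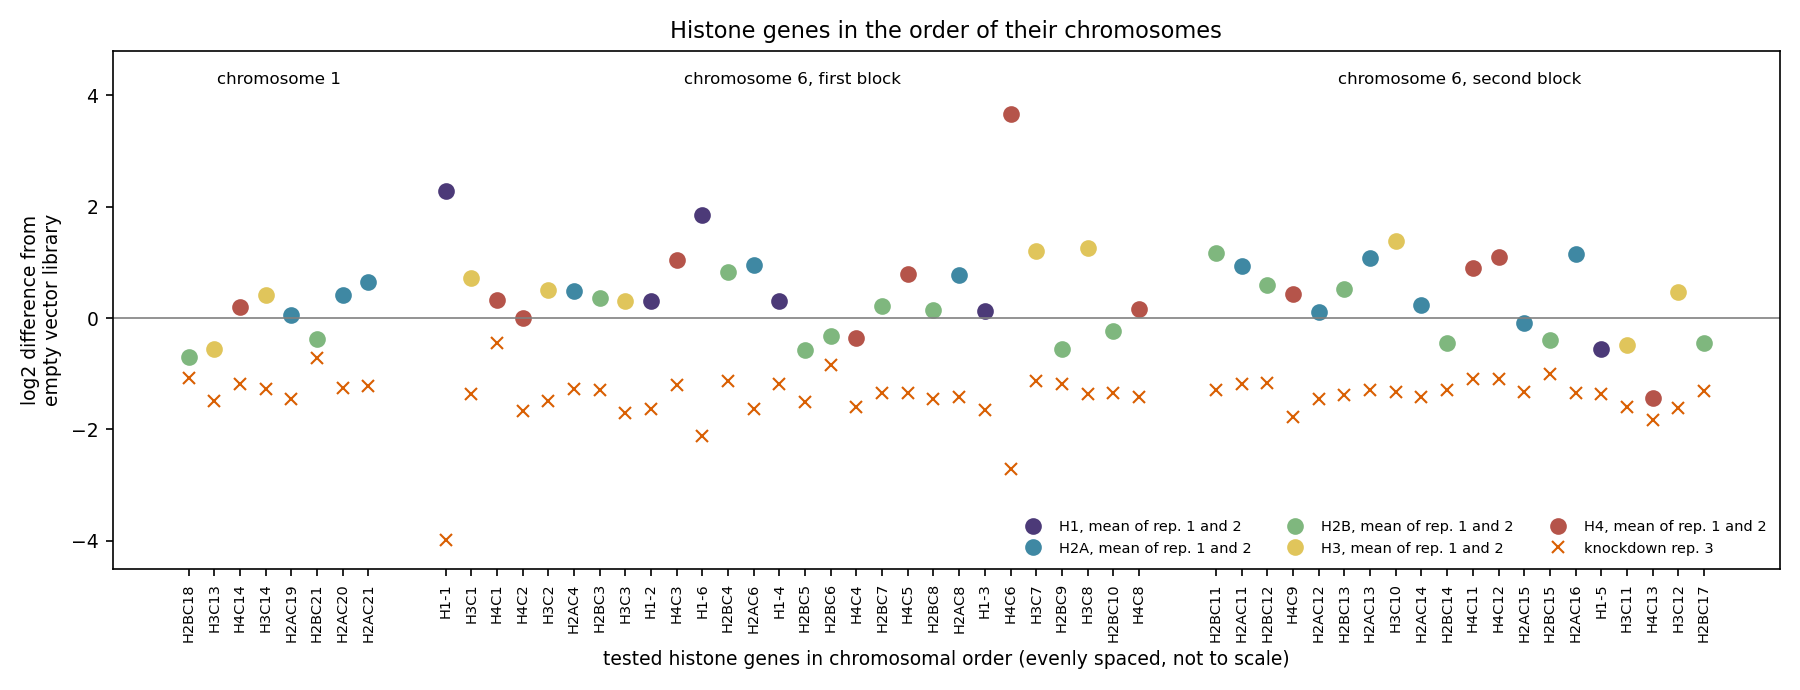
Log2 difference from the control library of the 56 tested histone genes in chromosomal order, evenly spaced and not to scale; filled points are the mean of knockdown replicates 1 and 2, coloured by class, and crosses are replicate 3. Filled points lie on both sides of 0 in each of the 3 places, and every cross lies below 0.

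Histones outside the rule gave a comparison by kind. Both lists below were set by name, and the kind was not checked for each gene. Of 7 further genes listed as replication-dependent 3 were tested, H4-16, H2AW and H2BU1. Their medians were -0.13, -0.04 and -1.53 in replicates 1, 2 and 3, and all 3 were at least 2-fold lower in replicate 3. H2BU1 had the largest mean difference of these, from 157 CPM in the control library against 97.4, 110 and 61 CPM. Replication-independent histones as a kind are made through the cell cycle from polyadenylated mRNA. The genes listed as such had medians of -0.31, -0.26 and -0.46 over the 10 tested of 12. Of these 10, 3 were at least 2-fold lower in replicate 3, against 15.9% of all genes. By the rule over all 3 libraries 1 was lower, against 2.72% of all genes, and 0 were higher, against 3.66%. That gene was H3-3A, which encodes histone H3.3, with 280 CPM against 132, 140 and 112 CPM. It also had the largest mean difference in size of that list, -1.13 ± 0.16 (SD, n = 3), and all 3 libraries lay below the control library. With the trends removed its log2 differences were -0.89, -0.88 and -0.65, and the call was lost.

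The genes that transcribe, process and decay histone RNA had list medians between -0.36 and 0.26 in each library. Over all genes the rule called 2.72% lower and 3.66% higher, and 1 call in so short a list cannot be told from these shares. Of 8 genes of transcription at the histone loci 1 was called lower, CCNE1, the cyclin E that with CDK2 activates NPAT. It had 46.7 CPM in the control library and 14.4, 15.9 and 21.9 CPM in replicates 1, 2 and 3. With the trends removed its log2 differences were -1.42, -1.34 and -0.52, so the call was lost through replicate 3. NPAT itself had 93.7 CPM against 99.9, 94.2 and 138 CPM, so the library with the least histone RNA had the most NPAT, and its mean log2 difference of 0.22 ± 0.29 (SD, n = 3) turned to -0.06 with the trends removed. Of 11 tested genes of histone RNA 3′ processing 0 were called in either direction. SLBP, the stem-loop binding protein, had the largest mean difference there, -1.43 ± 0.60 (SD, n = 3). It had 96.2 CPM in the control library and 28.5, 27.5 and 57.6 CPM in replicates 1, 2 and 3. SLBP was thus lowest where histone RNA was highest: its ratio was 0.297 (95% interval 0.272 to 0.324) and 0.286 (0.261 to 0.313) in the first pair and 0.599 (0.549 to 0.654) in replicate 3, which alone kept it from the call. Of 8 genes of histone RNA decay and translation 1 was called lower, LSM1, of the complex that binds RNA ends before decapping, with 12.3 CPM against 4.98, 5.93 and 4.29 CPM. Its values with the trends removed, -0.97, -0.80 and -0.82, all fell short of 2-fold.

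Among 13 histone chaperones, which hand histones to DNA, 1 was called higher and 0 lower, where 3.66% and 2.72% of all genes were. ATRX, which with DAXX places H3.3, had 102 CPM in the control library and 244, 228 and 246 CPM in replicates 1, 2 and 3. With the length and GC trends removed its log2 differences were 0.54, 0.49 and 0.61, and the call was lost. ASF1B, which carries new H3 and H4, had the largest mean difference in size, -1.28 ± 0.43 (SD, n = 3), from 64.9 CPM against 22, 23.1 and 37.7 CPM. Removal of the trends brought its log2 differences to -1.25, -1.24 and -0.18. A list of S phase genes was read beside the histone genes, and the share of cells in S phase was not measured. Of 16 such genes 0 were called in either direction. In both replicates 1 and 2, 14 lay below the control library, against 44.4% of all genes. All 16 did in replicate 3, against 56.8% of all genes. After trend removal RRM1, TYMS and FEN1 lay above it in replicate 3, at 0.12, 0.27 and 0.14, and the others below. The median log2 difference of the S phase genes, without that removal, was -0.83, -0.67 and -0.51 in replicates 1, 2 and 3. The histone genes had 0.28, 0.44 and -1.35. PCNA, the sliding clamp of DNA polymerase, had the largest mean difference, from 330 CPM against 105, 109 and 167 CPM. Its log2 differences were -1.37, -1.40 and -0.28 after trend removal. The list medians of histone and S phase genes thus lay on opposite sides of 0 in replicates 1 and 2 and on the same side in replicate 3. All these comparisons share the 1 control library.

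**Figure D5:**
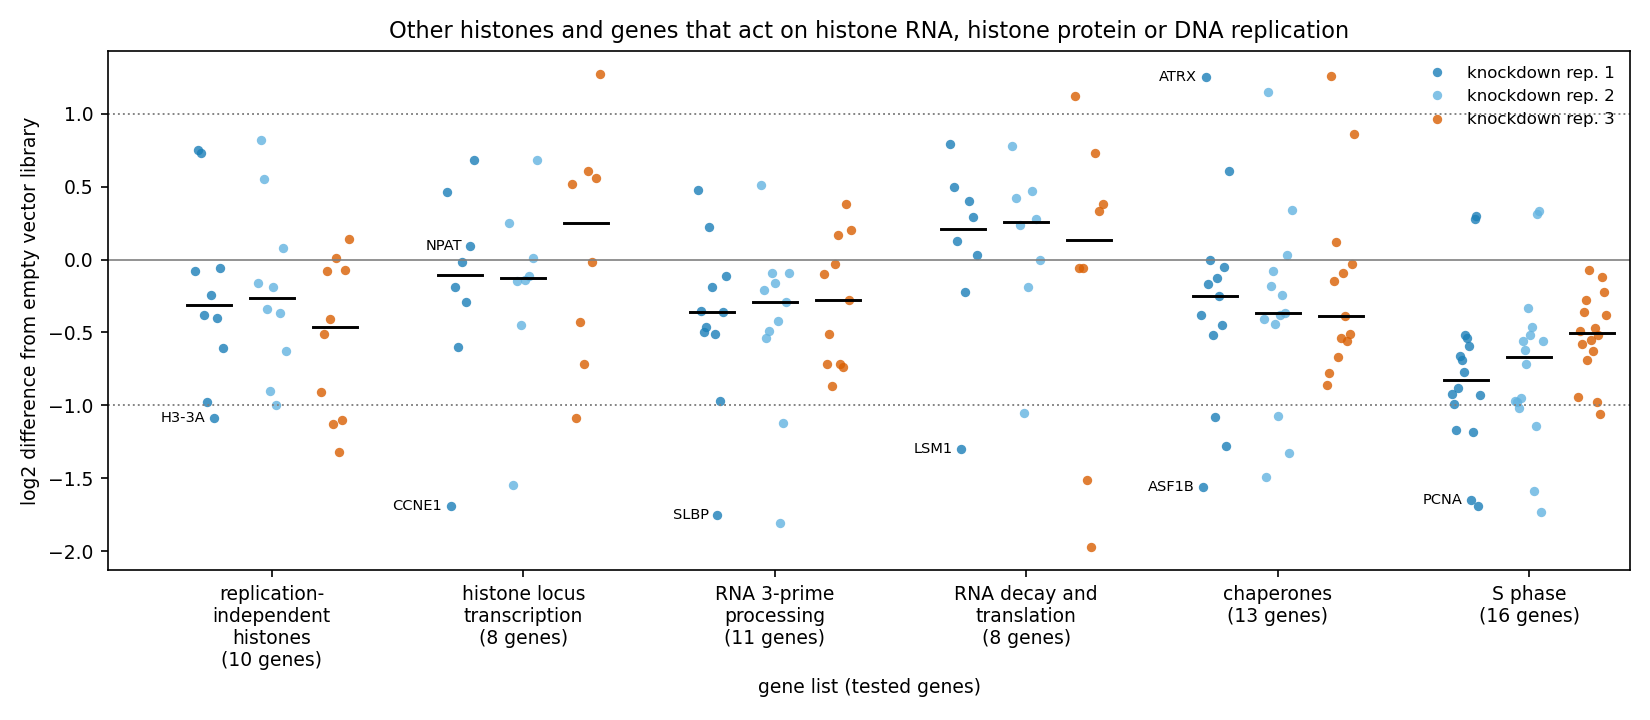
Log2 difference from the control library of each tested gene of 6 lists (points), by knockdown-labelled library, with list medians as bars, dotted lines at 2-fold and the genes named in the text labelled at replicate 1. S phase medians lie below 0 in all 3 libraries, and CCNE1 and SLBP lie lowest of their lists in replicates 1 and 2.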

How the data were processed

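RNA of 4 NT2 libraries was compared. Raw gene counts were deposited by the authors, with 1 table for each library. Per the submitters' processing notes, STAR 2.7.11b, featureCounts 2.0.6, DESeq2 and hg38 (GRCh38) were used; strand and multi-mapping settings and the annotation are not given in the sources used here. Between 65.2% and 68% of nonzero counts were even, so 95% intervals (exact Poisson, Clopper-Pearson) were computed on counts divided by 2.

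Counts were scaled with TMM factors (edgeR 4.0.16, R 4.3.3) of 0.953, 0.990, 0.969 and 1.094 for the empty vector library and knockdown-labelled replicates 1, 2 and 3, then converted to log2 CPM with a prior count of 2. The rule for a call (2-fold from the control in each knockdown-labelled library) was applied to genes with a mean group CPM of at least 1. edgeR's quasi-likelihood test and the Wald test of DESeq2 1.42.0 (Benjamini-Hochberg, 0.05) gave counts of calls over all genes. Rule, test and trend removal were tested on simulated data. Alternatives were other scalings, prior counts, filters, folds, leaving out each replicate, and removal of lowess trends (span 0.3) on length and GC content. Annotation came from GENCODE 29, with 62 of 66 genes matched by identifier and 4 through RefSeq synonyms, and promoters came from RefSeq (GRCh38.p14).

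The genes and lists were chosen with earlier results of these data known. Genes named by rule are, in each class, the 3 with the highest mean CPM, those called, and the lowest and highest mean log2 difference among those tested; from the other lists, SLBP, NPAT, called genes and the largest mean difference. Other names were chosen after their values were seen. One gene of the replication-independent histone list is not reported here.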

Additional observations from a re-analysis of the deposited data

How the results depend on the processing

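Of 195 alternative values, 182 kept their direction and side of the threshold or stayed within 1 SD between replicates or 1.5 times of the reported count. The rest came mostly from 2 settings. Without replicate 3, the number of histone genes called higher ranged from 0 to 11 over the omitted libraries, and that called by edgeR's quasi-likelihood test from 0 to 47. SLBP then had a mean log2 difference of -1.78, past 2-fold in each remaining library. Also without replicate 3, the sum of all histone genes turned from -0.27 to 0.25 and H3 from -0.10 to 0.60. H4 turned from -0.36 to 0.24, H2B from -0.36 to 0.01 and the median gene from -0.21 to 0.36. All these changes were within 1 SD. The mean of 3 values cannot move by 1 SD when 1 is left out, so for the sums that limit could not be passed. These values were counted among the 182 although their direction turned. With length and GC trends removed, 0 histone genes were called lower, H4C13 fell short of the call at -0.99, NPAT reversed to -0.06, and 4 genes were at least 2-fold lower in replicate 3. In replicates 1 and 2, 16 were then at least 2-fold higher and 0 lower. Under this removal the sum of all histone genes also turned, from -0.27 to 0.14, and the median gene from -0.21 to 0.25. H3 turned from -0.10 to 0.35 and H4 from -0.36 to 0.08, again all within 1 SD. Counts by single library under other settings were alternatives chosen after seeing the data. A 1.5-fold rule called 2 genes lower (H4C13 and H2BC18). A minimum of 0.1 CPM or none called 2 higher (H2BC1 and H3C6), and 2-fold on the mean called 1 higher (H4C6). In replicate 3 the H2BC1 call rests on 2 counts against 0 in the control library, a log2 difference of 1.27 that depends on the prior count. The cause of these changes was not tested. Other scalings moved the median of all genes in replicate 3 from -0.15 to between -0.14 and 0.05, and that of the histone genes from -1.35 to between -1.33 and -1.15. The number of histone genes at least 2-fold lower there, 53 of 56 as reported, was 52 with RLE size factors. It was 48 with upper quartile factors and 42 with total counts alone, against 15.5%, 12% and 10.4% of all genes in the same order. No paired analysis was possible because only 1 control library exists, without a replicate number. Depth limits genes with few counts: in the empty vector library 6 counts are 0.25 CPM.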
